A study of Mus musculus with 6 samples.

Results

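A set of 10 genes of lysophospholipid handling was followed in leukaemic progenitors that carried or lacked the arginine methyltransferase gene Prmt6. They were Mfsd2a, the transporter named in the study's title, the related exporters Mfsd2b and Spns2, and the acyltransferases Lpcat1, Lpcat2, Lpcat3, Lpcat4, Mboat1, Mboat2 and Mboat7. The genes were selected by symbol, and all 10 were found among the 30037 named genes of the deposited expression table. The libraries came from L-GMP cells, a leukaemic fraction resembling granulocyte-macrophage progenitors, sorted out of bone marrow leukaemia cells of mice aged 8 to 10 weeks with acute myeloid leukaemia. The wild-type group (WT) and the Prmt6-/- group had 3 polyA RNA libraries each, numbered 1 to 3, and both groups were leukaemic. How the leukaemia was started and how the Prmt6 allele was made are not given in the sources used here. Nothing in the labels says that libraries of a group came from separate mice, so the p-values reflect only how far these libraries scatter, and that scatter may be technical.

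Lysophospholipids are membrane lipids that have lost 1 of their fatty acyl chains. Cells take them up or export them through transporters of the major facilitator superfamily, and they turn them back into phospholipids by adding a new chain, the reacylation step of the Lands cycle. Phospholipases run the cycle in the other direction, so that the pair of reactions sets which fatty acids a membrane carries. Mfsd2a imports lysophosphatidylcholine with long polyunsaturated chains and is known best from the blood-brain barrier, whereas Mfsd2b and Spns2 export sphingosine 1-phosphate, a signalling lysophospholipid, from blood cells and from endothelium. Lpcat1, Lpcat2 and Lpcat4 belong to the acylglycerolphosphate acyltransferase family, and Lpcat3, Mboat1, Mboat2 and Mboat7 to the membrane-bound O-acyltransferase (MBOAT) family.

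The values are the authors' normalized log2 expression values, on which read depth cannot be recovered. This scale pulls genes of low level towards a common value. Where the authors' deposited table calls a gene, the difference on this scale divided by the authors' log2 fold change had a median of 0.102 over 346 genes with a mean level of 1 to 5, and of 0.881 over 1751 genes with a mean level of 10 or more. Differences of low genes given here are therefore mostly smaller in size than the authors' log2 fold changes. The ratio covers only genes picked by the authors' test, which favours large log2 fold changes, and the true fold change of a transcript was not measured. For the low genes named with a difference the log2 fold change in the authors' deposited table is given too. Prmt6 itself stood at 7.82, 7.60 and 7.41 in the wild-type libraries and at 5.42, 5.46 and 5.48 in the knockout libraries (log2 fold change -7.66 in the authors' deposited table), which separates the genotypes as labelled. Most progenitor markers were present in every library, with Kit between 9.66 and 10.30, Cd34 between 10.36 and 10.56 and Fcgr3 between 13.18 and 13.39. Elane, Prtn3, Ctsg, Hoxa9 and Meis1 lay at 10.89 or more. Mpo varied from 13.34 to 16.29. Cebpa lay at 4.84 to 5.35, below the deposited values of Prmt6 in the knockout, which are not corrected for gene length. Markers of other lineages were uneven. Of the platelet markers Pf4 (0.19 to 0.22) lay near the bottom of the scale, whose lowest value was -1.97, and Itga2b at 5.38 to 5.50, while of the endothelial markers Cdh5 lay at -0.03 to -0.01 and Pecam1, which myeloid cells also express, at 10.67 to 11.47.

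Upstream sequence is shown for the 2 genes the results turn on, Mfsd2a because the study's title names it and Lpcat2 because its difference was the largest of the 10. Each line gives the 250 bases before the RefSeq start site, 5′ to 3′ on the gene's strand, build GRCm38.p6, with GC boxes (GGGCGG) and CCAAT boxes (CCAAT), searched on both strands, in capitals.
Mfsd2a, chr4:122961189-122961438, minus strand: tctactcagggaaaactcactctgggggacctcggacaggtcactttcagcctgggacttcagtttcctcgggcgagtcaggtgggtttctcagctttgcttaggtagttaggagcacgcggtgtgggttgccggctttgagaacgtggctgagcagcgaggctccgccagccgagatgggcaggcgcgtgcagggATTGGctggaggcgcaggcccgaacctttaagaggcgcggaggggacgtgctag
Lpcat2, chr8:92855083-92855332, plus strand: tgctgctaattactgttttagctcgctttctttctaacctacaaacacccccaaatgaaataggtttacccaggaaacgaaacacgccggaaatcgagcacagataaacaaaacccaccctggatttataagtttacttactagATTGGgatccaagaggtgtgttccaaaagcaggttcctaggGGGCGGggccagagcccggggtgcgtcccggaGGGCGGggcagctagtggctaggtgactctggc
The Lpcat2 stretch held 2 GC boxes, 1 CCAAT box and 1 ETS core (CCGGAA). That of Mfsd2a held 1 CCAAT box and neither of the other motifs. RefSeq upstream sequence was matched for all 10 genes. A GC box was found upstream of 8 of the 10 genes and of 32.7% of 32851 promoters of the same length, a CCAAT box upstream of 7 and of 33.8%, and an ETS core upstream of 2 and of 12%. The 3 motifs have different letters and do not overlap in the 2 stretches shown. The stretches of Lpcat1, Lpcat3, Lpcat4, Mboat1 and Mboat7 overlap annotated untranslated exon sequence. Those of Spns2 and Mboat2 lie inside the annotated gene. In Lpcat3, Lpcat4, Mboat1 and Mboat2, 70.0% to 79.6% of bases were G or C, beside a median of 52.4% over all promoters. GC boxes are more frequent in such sequence, so the shares are not a like comparison. These matches describe letters in the sequence and were not tested as binding sites.

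The first question was how the transporter named in the title stood when Prmt6 was lost. Mfsd2a (chromosome 4, 122946850 to 122961188, GRCm38, protein-coding) had deposited log2 values of 3.80, 3.74 and 3.81 in the WT libraries, against 4.01, 3.86 and 3.87 in those lacking Prmt6. All knockout libraries lay above all wild-type libraries, and the groups were separated by less than the range within the knockout. The difference was 0.13 (knockout minus wild type, 95% interval 0.02 to 0.23) and did not pass limma's test after adjustment over all 15454 genes tested (adjusted p = 0.0738). An exact two-sided permutation of the 6 values gave p = 0.1, which is the lower limit with 3 libraries a side. Without knockout library 1 the difference was 0.078 (limma adjusted p = 0.204). For Mfsd2a the authors' deposited table has 1.40 as the log2 fold change (2.63-fold higher; adjusted p = 0.103), so that neither test called it. Of 1092 tested genes within 0.5 of its mean level 15.4% were called, beside 33.0% of all genes tested.

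The sphingosine 1-phosphate exporters were not called either. Spns2 (chromosome 11, 72451638 to 72489904) stood at 4.43, 4.40 and 4.46 (WT) against 4.26, 4.34 and 4.35 (knockout). All its knockout values were below all its wild-type values, with a difference of -0.11 (95% interval -0.21 to -0.01, limma adjusted p = 0.0885). After quantile normalization the difference was -0.143 and passed (limma adjusted p = 0.0396), and after centring by intensity it was -0.144 (limma adjusted p = 0.0376). For Spns2 the authors' deposited table has -0.86 (log2 fold change; adjusted p = 0.220). Spns2 shares exon sequence in opposite orientation with Mybbp1a, a nucleolar protein gene whose mean was 11.77 without and 11.78 with the knockout. The labels and header do not state whether the counting used strand.

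Mfsd2b (chromosome 12, 4862440 to 4874359) did not separate the genotypes. The wild-type values were 4.41, 4.31 and 4.35 and the knockout values 4.36, 4.35 and 4.35, which overlap, a difference of -0.001 with a 95% interval of -0.099 to 0.098 (limma adjusted p = 0.993). For Mfsd2b the authors' deposited table has a log2 fold change of -0.01. Red blood cells and platelets are known for this exporter. Of 8 erythroid markers, 7 of them tested, 1 was higher (Klf1, by 0.22; log2 fold change 1.76 in the authors' deposited table) and 0 were lower, and their summed level was 6.09 to 6.11 in WT libraries and 6.12 to 6.20 in knockout libraries (log2 of the sum of linear values). Of 6 megakaryocyte and platelet markers 4 were tested and 0 called, with summed levels of 5.85 to 5.92 and 5.91 to 5.94. Among 6 endothelial markers 2 were tested and 1 was lower (Pecam1, by 0.41), with summed levels of 11.15 to 11.48 and 10.68 to 11.02. That sum is almost wholly Pecam1 (10.67 to 11.47). Beside these counts, 33.0% of all genes tested were called, and 15.4% of genes within 0.5 of the mean level of Mfsd2a. Most erythroid and platelet markers are low genes, so few calls among them say little about those cells. The part of these markers in the values of the exporters was not tested.

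**Figure D1:**
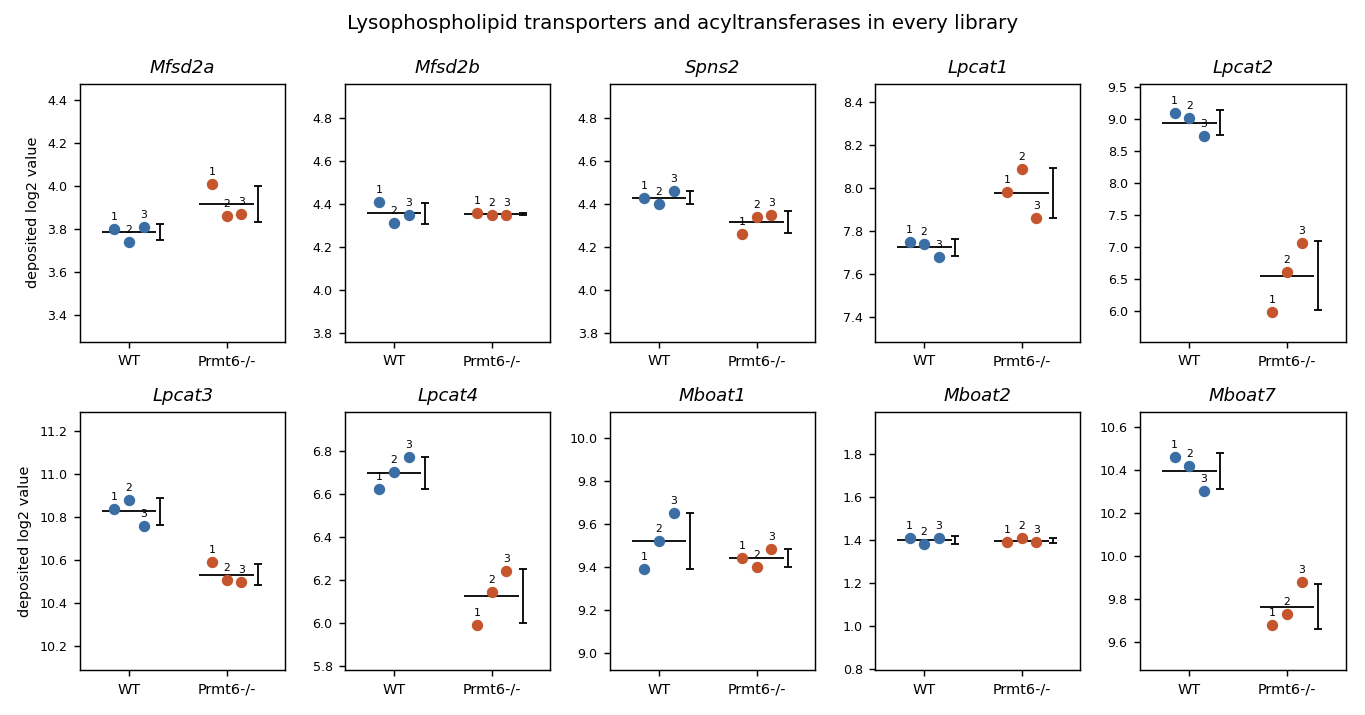
Deposited log2 value (vertical axis, a separate range in each panel) of the 10 genes in the 3 WT (blue) and 3 Prmt6-/- (orange) libraries. Points are libraries with their numbers, lines are group means and bars are 1 SD. Lpcat2, Lpcat3, Lpcat4 and Mboat7 are lower in every knockout library than in any wild-type library, with Lpcat2 between 5.98 and 7.06 against 8.72 to 9.08.

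All calls among the 10 genes fell on acyltransferases. Of the 7 enzymes 5 were called, 4 lower and 1 higher in the knockout, while 0 of the 3 transporters were called. The transporters were low genes (mean levels 3.85 to 4.37), whereas the enzymes other than Mboat2 (1.4) had means of 6.41 to 10.68. Calls were rarer among low genes, with 15.4% called within 0.5 of the mean level of Mfsd2a. The filter with a minimum value of 5 kept 10755 genes, of which 4873 were called. Whether the contrast between enzymes and transporters goes beyond level was not tested. Over all 10 genes 50% were called, beside 33.0% of all genes tested (18.0% lower and 15.0% higher), so the share exceeds the background by few genes. The same 5 genes are past the threshold in the authors' deposited table, which calls 31.0% of the genes tested here. The groups did not overlap for 7 of the 10 genes, beside 47.4% of all genes tested. The median difference was -0.10 over the 10 genes and -0.29 over the 7 enzymes, beside 0.01 over all genes tested.

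Lpcat2, which reacylates lysophosphatidylcholine and also makes platelet-activating factor (PAF) in inflammatory cells, was the most reduced. It lies on chromosome 8, 92855339 to 92919279. Its values were 9.08, 9.01 and 8.72 in the WT libraries, against 5.98, 6.60 and 7.06 in those lacking Prmt6. The highest knockout library lay well below the lowest wild-type library, and the knockout libraries were the more scattered (SD 0.54 against 0.19, n = 3 each). The difference was -2.39 (95% interval -2.91 to -1.87, limma adjusted p = 0.000105), a 5.23-fold lower level on the deposited scale. The authors' deposited log2 fold change was -3.73, a 13.2-fold lower level, with an adjusted p of 0.000888. Of the 15454 genes tested, 1.95% were called with a difference of at least 1 in size, and Lpcat2 was the only one of the 10 genes among them. A difference as low as that of Lpcat2 or lower was found for 10 genes, or 0.0647%. In limma fits that left out 1 library at a time the Lpcat2 difference ran from -2.645 to -2.104, past the threshold each time. An antisense gene overlaps its exons on the other strand. Lpcat2b, a close relative, had means of 1.33 and 1.31 in the same groups, and reads common to both genes could enter either value.

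Lpcat1, the enzyme of this family best known from surfactant lipid synthesis in lung, moved the other way. It lies on chromosome 13, 73467197 to 73516422. The wild-type libraries stood at 7.75, 7.74 and 7.68 and the knockout libraries at 7.98, 8.09 and 7.86. Every knockout value was above every wild-type value. The rise of 0.25 (95% interval 0.08 to 0.41) passed with all libraries (limma adjusted p = 0.0279). The call ended without wild-type library 1, 2 or 3 (limma adjusted p = 0.0542, 0.0650 and 0.0737) and without knockout library 1 or 2 (0.0701 and 0.105). For Lpcat1 the authors' deposited table has a log2 fold change of 0.42 (adjusted p = 0.0413).

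Lpcat4, the third enzyme of that family here, which acts mainly on lysophosphatidylethanolamine and related acceptors, was lower in the knockout. On chromosome 2 it spans 112239468 to 112247111. Wild-type values of 6.62, 6.70 and 6.77 stood against knockout values of 5.99, 6.14 and 6.24. The gap between the groups was wider than the range within either. Lpcat4 fell by 0.57 (95% interval -0.76 to -0.39, limma adjusted p = 0.000773), and the authors' deposited log2 fold change was -1.51 with an adjusted p of 2.41e-06.

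Among the MBOAT enzymes the largest fall was that of Mboat7, which puts arachidonic acid onto lysophosphatidylinositol. Mboat7 (chromosome 7, 3677789 to 3693523) had values of 10.46, 10.42 and 10.30 (WT) against 9.68, 9.73 and 9.88 (knockout). No library of one group reached the other. Its difference was -0.63 (95% interval -0.79 to -0.47, limma adjusted p = 0.000245), and the authors' deposited log2 fold change was -0.75 with an adjusted p of 3.23e-12. Mboat7 shares exon sequence in opposite orientation with Tsen34, a tRNA splicing endonuclease subunit. Tsen34 was lower too, with means of 9.32 (WT) and 8.95 (knockout; difference -0.37, limma adjusted p = 0.00412). The part of reads from either gene in the value of the other was not tested.

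Lpcat3, the enzyme that builds arachidonate and linoleate into phosphatidylcholine, was the most abundant of the 10 per length. Lpcat3 (chromosome 6, 124663027 to 124704418) stood at 10.84, 10.88 and 10.76 in the WT libraries, against 10.59, 10.51 and 10.50 in those lacking Prmt6. All knockout libraries lay below the wild type. The fall of 0.29 (95% interval -0.42 to -0.17) passed limma's test (adjusted p = 0.00373), and the authors' deposited log2 fold change of -0.34 had an adjusted p of 0.000132. Its exons overlap those of Emg1, a ribosome biogenesis gene on the other strand, whose difference was -0.09 (limma adjusted p = 0.225).

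Mboat1 and Mboat2, acyltransferases of lysophosphatidylethanolamine and other lysophospholipids, were not called. Mboat1 (chromosome 13, 30136489 to 30246717) had wild-type values of 9.39, 9.52 and 9.65 and knockout values of 9.44, 9.40 and 9.48, and the groups overlapped. The Mboat1 difference was -0.08 (95% interval -0.25 to 0.09, limma adjusted p = 0.458). Mboat2 (chromosome 12, 24830879 to 24964397) lay near the bottom of the scale, between 1.38 and 1.41 in all 6 libraries, where the deposited values hold almost no information on a change. The authors' deposited table has log2 fold changes of -0.10 for Mboat1 and -0.06 for Mboat2.

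**Figure D2:**
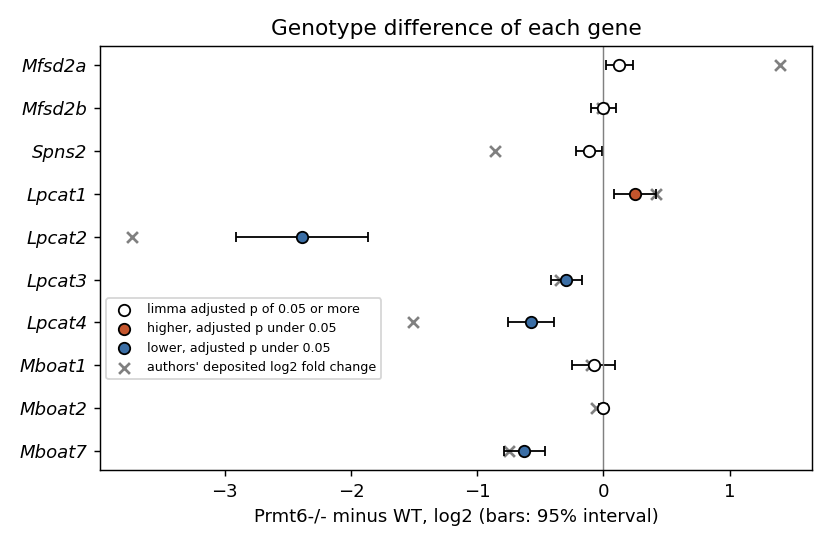
Difference between Prmt6-/- and WT libraries (horizontal axis, log2) of the 10 genes. Circles with 95% intervals are limma differences on the deposited scale and crosses are the authors' deposited log2 fold changes. Lpcat2 stands at -2.39, the intervals of the other 4 called enzymes exclude 0, as do the unadjusted intervals of Mfsd2a and Spns2, and for Mfsd2a the cross at 1.40 lies far from the circle at 0.13.

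Levels of different genes can be set side by side only per length. The deposited value minus the log2 of the union of annotated exons in kilobases gave, in the wild type, the order Lpcat3 (9.12), Mboat1 (7.65), Mboat7 (7.33), Lpcat2 (7.18), Lpcat1 (5.51), Lpcat4 (5.20), Mfsd2a (2.62), Spns2 (2.40), Mfsd2b (1.99) and Mboat2 (-1.86). In the knockout the order was the same except for one exchange, with Lpcat1 at 5.76 now above Lpcat2 at 4.79. On this scale Lpcat1 minus Lpcat2 was -1.78, -1.72 and -1.49 in the wild-type libraries and 1.54, 1.03 and 0.35 in the knockout libraries. So Lpcat2 was the more abundant of these 2 enzymes in each wild-type library and Lpcat1 in each knockout library, also with the longest annotated transcript as the length. Neighbours in the order were close for the 3 transporters. With the longest transcript Spns2 (2.73) stood above Mfsd2a (2.68) in the wild type, and Mboat7 (8.63) above Mboat1 (7.98). In the knockout Mfsd2a (2.81) then stood above Spns2 (2.62), an exchange not seen with the exon union. The pair Lpcat1 and Lpcat2 was chosen after its values were seen, and its exchange is a description with no test of its own.

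The balance of the 7 acyltransferase transcripts differed between the genotypes. Of their summed linear level per kilobase, Lpcat2 took 13.8%, 13.0% and 11.2% in the wild-type libraries and 2.18%, 3.39% and 4.55% in the knockout libraries. Lpcat1 took 3.92% to 4.05% against 5.80% to 6.93%. Lpcat3 remained the largest, with a mean of 48.5% ± 0.518 (SD, n = 3) in WT libraries and of 53.0% ± 1.99 in knockout libraries, although its own level fell. Mboat1, whose level was not called as different, took 17.5% ± 1.99 and 22.1% ± 0.329, and Mboat7 14.1% ± 0.537 and 12.2% ± 0.754. With the longest transcript as the length Mboat7 took 23.4% ± 0.796 and 20.4% ± 1.18, above Mboat1 with 15.0% ± 1.76 and 19.0% ± 0.247, and Lpcat2 took 10.3% ± 1.06 and 2.77% ± 0.962. A share rises when other members of the sum fall. These sums take the deposited values as log2 levels, although that scale pulls low genes together. Lpcat2 was 5.23-fold lower on it and 13.2-fold lower in the authors' deposited table. The shares are therefore not measured abundances, and the knockout shares of Lpcat2 and of other low genes may be too high.

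**Figure D3:**
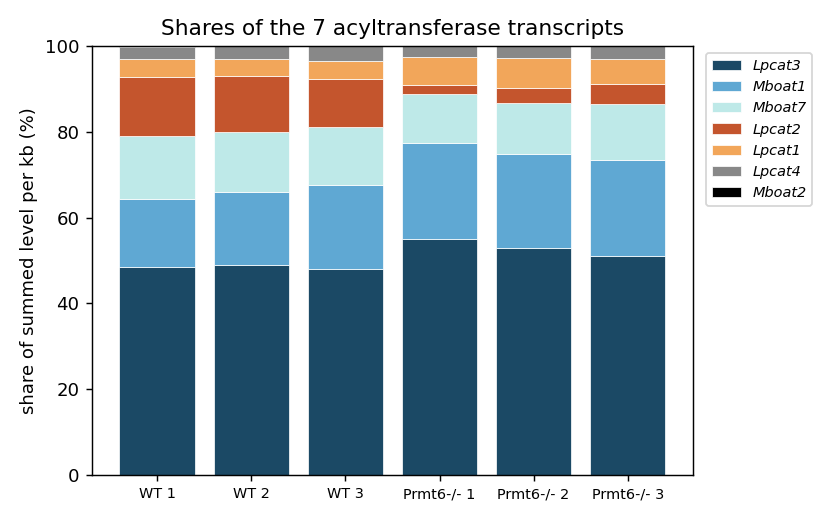
Share (vertical axis, %) of each acyltransferase in the summed linear level per kilobase of the 7 enzymes, in each library. The Lpcat2 segment shrinks from between 11.2% and 13.8% in the WT libraries to between 2.18% and 4.55% in the Prmt6-/- libraries. Levels are taken from the deposited scale, which pulls low genes together, and are not measured abundances.

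Lpcat2 is known for its level in macrophages, and markers of that lineage were measured in the same libraries. Of 8 macrophage and monocyte markers 7 were tested, and 4 were lower in the knockout and 0 higher, beside 18.0% lower and 15.0% higher over all genes tested. The adhesion molecule Vcam1 fell by 2.17, the receptor Csf1r by 1.83, the lysosomal glycoprotein Cd68 by 0.94 and Emr1, which encodes F4/80, by 0.33. Csf1r stood at 10.58, 10.67 and 10.41 (WT) against 8.36, 8.83 and 8.99 (knockout), with knockout library 1 the lowest as for Lpcat2. Vcam1 stood at 12.28, 12.02 and 11.80 against 9.45, 10.06 and 10.06, again with knockout library 1 the lowest. Ly6c2, a monocyte surface protein, differed by 0.02 (limma adjusted p = 0.801), and the tissue macrophage genes C1qa (1.07 to 1.14) and Mrc1 (0.70 to 0.75) lay near the bottom of the scale in all 6 libraries. The summed level of the 8 markers was 14.90 to 15.12 in WT libraries and 14.69 to 14.77 in knockout libraries (log2 of the sum of linear values). Ly6c2, at 14.36 to 14.56 over both groups, makes up most of that sum, so the sum says little about the other markers. Among other marker lists, of 10 progenitor markers 3 were higher (Elane, Ctsg and Meis1), of 8 mature neutrophil markers 2 were higher (Camp and Cxcr2) and 1 lower (Mmp8), of 3 tested B cell markers 1 was lower (Cd79b), and of 2 tested T and NK cell markers 1 was higher (Cd3d) and 1 lower (Nkg7). The authors' deposited table does not call Mmp8 (adjusted p = 0.204) or Nkg7 (adjusted p = 0.0941). It has the progenitor markers Kit as lower (adjusted p = 0.0481) and Prtn3 as higher (adjusted p = 0.0254), which limma did not call. The part of these markers in the Lpcat2 result was not tested, and in bulk RNA fewer cells of a type and less RNA per cell cannot be told apart.

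**Figure D4:**
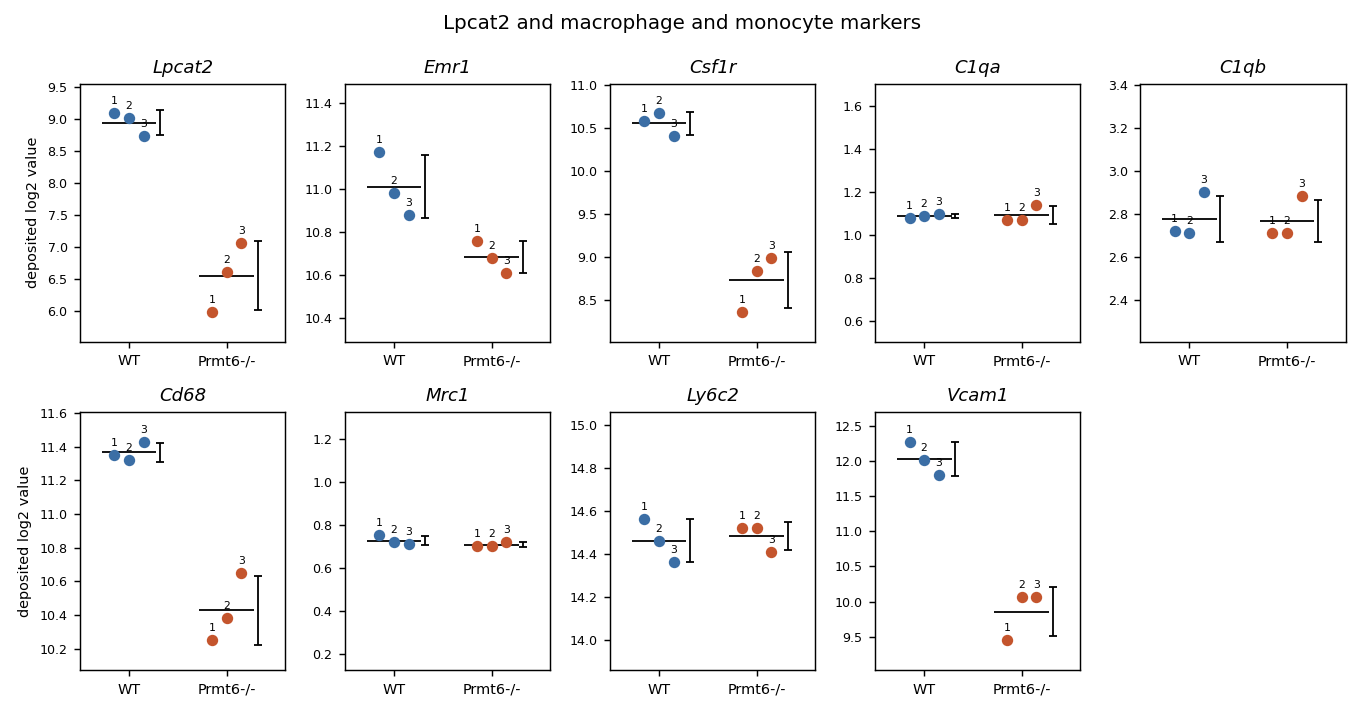
Deposited log2 value (vertical axis, a separate range in each panel) of Lpcat2 and of 8 macrophage and monocyte markers in the 3 WT (blue) and 3 Prmt6-/- (orange) libraries, with group means and 1 SD. Csf1r, Cd68, Vcam1 and Emr1 are lower in every knockout library, whereas C1qa, C1qb, Mrc1 and Ly6c2 overlap between the groups.

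The genes whose 6 values followed Lpcat2 most closely were those with the smallest root mean square distance after each gene's own mean was removed. Among them were Ebi3, a cytokine subunit (distance 0.134, difference -2.32), and Bcl2a1a, an anti-apoptotic gene with near-identical copies (0.165, -2.20). Ebi3 had 10.99, 11.01 and 10.78 in the WT libraries, against 8.23, 8.69 and 8.89 in those lacking Prmt6, and the groups did not overlap. Those closest to Mfsd2a were Nupl2 (0.0166), Prl8a1 (0.0168) and Slc25a47 (0.0196), whose differences of 0.13, 0.15 and 0.09 did not pass (limma adjusted p = 0.170, 0.128 and 0.144). The distance is a description over 6 libraries, with no test.

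Other genes of the same lipid pathways were counted in 10 lists with 151 genes in the table, of which 135 were tested. In all 25 were higher and 27 lower, or 38.5% called beside 33.0% of all genes tested, with a median difference of 0.01. On this count the lists as a whole were near the background.

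Of 9 tested members of the list of other lysophospholipid and lipid transporters, 5 were lower and 1 higher, or 66.7% called beside 33.0% of all genes tested, with a median of -0.37. The count of 6 was 4 in the authors' deposited table, in limma without the trend, and without wild-type library 1 or 3 or knockout library 1 or 2. Spns1, which exports lysophospholipids from lysosomes, fell by 0.81, the multidrug and lipid transporter Abcc1 by 0.55 and the lipid transporter Abca7 by 0.37. The deepest fall was that of Mfsd1 (1.22), which is known as a lysosomal carrier of dipeptides and had been listed as a relative of Mfsd2a. Mfsd1 went from 12.31 ± 0.06 to 11.08 ± 0.07 (SD, n = 3; limma adjusted p = 3.57e-06). The remaining called members, named after their values were seen, were Spns3, which fell by 0.64 with overlapping groups, and the phosphatidylcholine floppase Abcb4, which rose by 0.08. The authors' deposited table calls neither Spns3 (adjusted p = 0.0566) nor Abcb4 (log2 fold change 1.61, adjusted p = 0.144).

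Enzymes that break down phospholipids and lysophospholipids moved in both directions. Not all of them release acyl chains, since the list also holds phosphodiesterases such as Gde1. Of 27 tested genes in this list 6 were lower and 3 higher, or 33.3% called beside 33.0% of all genes tested, with a median of 0.01. Pla2g15, the lysosomal phospholipase A2, fell by 1.05, from 9.83 ± 0.11 to 8.78 ± 0.22 (SD, n = 3; limma adjusted p = 0.000147). The lipase Pnpla2 fell by 0.73 and the lysophospholipase Pnpla7 by 0.69, while the phospholipase Ddhd2 rose by 0.50. The other called members, named after their values were seen, were Pnpla6, Pnpla8 and Gde1 (lower by 0.27 to 0.41) and Abhd3 and Abhd12 (higher by 0.06 and 0.18). In the authors' deposited table the low genes among them have log2 fold changes of -1.80 (Pnpla6) and 3.18 (Abhd3, adjusted p = 0.0972). The authors' deposited test calls neither Abhd3 nor Abhd12 (adjusted p = 0.0536 for Abhd12).

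Another list covered enzymes that add chains to glycerol phosphate and lysophosphatidic acid, an earlier step of synthesis, and some related genes without that role. Of its 14 tested genes 4 rose and 2 fell, or 42.9% called beside 33.0% of all genes tested. Gpam, a mitochondrial glycerol phosphate acyltransferase, rose by 0.51 (log2 fold change 1.34 in the authors' deposited table), the cardiolipin remodelling enzyme Lclat1 by 0.43 and the lipase co-activator Abhd5 by 0.36, and Agpat4 fell by 0.71. Agpat6, which rose by 0.34, and Tmem68, which fell by 0.42, were named after their values were seen. Of 6 other MBOAT enzymes tested, 2 rose and 0 fell, or 33.3% called. These were the sterol acyltransferases Soat2 (by 0.66; log2 fold change 1.33 in the authors' deposited table) and Soat1 (by 0.32), which work on cholesterol and not on lysophospholipids.

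New phosphatidylcholine and phosphatidylethanolamine are made by the CDP-choline and CDP-ethanolamine routes. Of 17 tested genes in the list drawn up for these routes 3 rose and 3 fell, or 35.3% called beside 33.0% of all genes tested. That list also holds Pisd, Pemt, Ptdss1 and Ptdss2, which make or convert these phospholipids outside the CDP steps. Pcyt1a, the rate-limiting enzyme of phosphatidylcholine synthesis, rose by 0.40 and Ept1, an ethanolamine phosphotransferase, by 0.28, while Cept1, a phosphotransferase of both routes, fell by 0.53 and the choline kinase Chka by 0.30. Lpin2, which rose by 0.18, and Pisd, which fell by 0.26, were named after their values were seen. Among 5 tested choline transport genes 2 rose and 0 fell, or 40% called. They were Slc44a1 (by 0.19; log2 fold change 1.24 in the authors' deposited table) and Mfsd7b, also named Flvcr1 (by 0.26, limma adjusted p = 0.0409). Mfsd7b kept its call in 6 of 13 alternative limma fits. It lost it without wild-type library 1 or 3 or any knockout library (limma adjusted p = 0.0603, 0.103, 0.119, 0.0708 and 0.0911), with intensity-dependent centring (0.0538) and with no low-value filter (0.0505). The authors' deposited table does not call Mfsd7b (log2 fold change 0.56, adjusted p = 0.0651).

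On the sphingosine 1-phosphate side 3 of 12 tested genes of metabolism fell and 1 rose, or 33.3% called beside 33.0% of all genes tested. The acid ceramidase Asah1, which releases sphingosine in lysosomes, fell by 0.80, the ceramidase Acer3 by 0.31 and Sgpl1, the lyase that degrades sphingosine 1-phosphate, by 0.29. Sphk1, the kinase that makes it, rose by 0.22 (limma adjusted p = 0.0311). That call ended in 5 of the 6 fits that left out 1 library, all but the one without knockout library 3 (limma adjusted p = 0.0516, 0.0699 and 0.0835 without wild-type libraries 1, 2 and 3, and 0.0818 and 0.112 without knockout libraries 1 and 2). The authors' deposited table has a log2 fold change of 0.38 for Sphk1 and does not call it (adjusted p = 0.0692).

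Receptors of lysophospholipids and PAF were called in 5 of 14 cases, 2 higher and 3 lower, or 35.7% beside 33.0% of all genes tested. The count was 3 without wild-type library 2. Gpr132, a receptor linked to lysophosphatidylcholine and oxidized fatty acids, fell by 0.88, from 9.37 ± 0.05 to 8.49 ± 0.21 (SD, n = 3; limma adjusted p = 0.000245). Ptafr, the receptor of the PAF that Lpcat2 helps to make, fell by 0.64 (12.11 ± 0.18 to 11.48 ± 0.35, limma adjusted p = 0.0132), a call that ended without wild-type library 2 (limma adjusted p = 0.0517) and with robust variance estimates (0.0594). The lysophosphatidic acid receptor Lpar1 rose by 0.47 and the sphingosine 1-phosphate receptor S1pr5 by 0.20 (log2 fold changes of 0.77 and 1.41 in the authors' deposited table), while Lpar6, named after its value was seen, fell by 0.29.

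**Figure D5:**
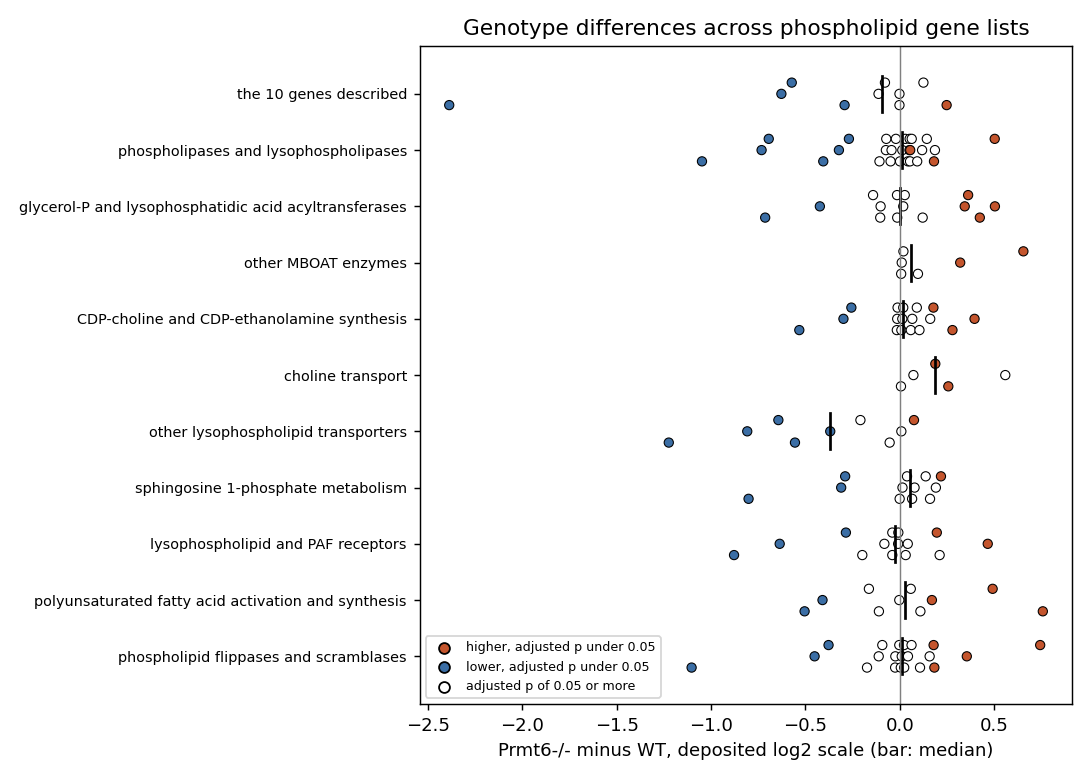
Difference between Prmt6-/- and WT libraries (horizontal axis, deposited log2 scale) of each tested gene in the 10 genes described and in the 10 pathway lists (rows). Filled points passed limma's adjusted p threshold and vertical bars are list medians. Medians lie between -0.10 and 0.19 in every row but that of other lysophospholipid transporters, at -0.37.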

How the data were processed

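RNA of 6 libraries was compared, 3 per genotype, made with oligo(dT) selection, random priming and 15 PCR cycles, per the labels' protocols. Tools named in the submitters' processing notes are Trim Galore, kallisto and HOMER, without versions, with the build GRCm38. Per the file headers, the deposited values came from HOMER's differential expression command on a table of read counts. The sample values are log2 values normalized by the authors (-1.97 to 18), and the transformation is not named. The authors' log2 fold changes, p-values and adjusted p-values were deposited beside them, from a test the file does not name. A nameless row (0.00333% of rows) was left out.

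Testing used limma 3.58.1 in R 4.3.3 with a mean-variance trend, on the 15454 genes that reached 1 in 3 or more libraries. Tests were two-sided, and p was adjusted after Benjamini and Hochberg with a threshold of 0.05. "Called", "rose" and "fell" refer to this threshold, and intervals and standard errors are limma's. The fit was tested on simulated data with planted changes. All 10 genes passed the filter in all 6 libraries. Exact permutation tests used scipy 1.17.1. Named genes are the 10 genes, Prmt6, from each list the called members, at most 4, by smallest p, and the 3 genes most alike in pattern to Mfsd2a and to Lpcat2, of which 1 is not reported here. The genes and lists were chosen with earlier results of these data known. Alternatives were 2 other normalizations, 2 filters, 2 variance models, the replicate number as a block, the authors' own test and leaving out each library. Coordinates and exon lengths are from GENCODE M21 on GRCm38, upstream sequences from RefSeq (GRCm38.p6). Older symbols were matched through RefSeq synonyms. Libraries of 1 genotype correlated across genes at 0.99873 to 0.99922 (Pearson), those of different genotypes at 0.99333 to 0.99607. No read depth could be derived, so the precision rests on the spread of libraries. The main fit has no block, and the labels name no pairs of libraries across the 2 genotypes. Deviations of same-numbered libraries correlated at 0.0948, 0.0727 and 0.172, and a fit with the replicate number as a block is given below.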

Additional observations from a re-analysis of the deposited data

How the results depend on the processing

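The falls of Lpcat2, Lpcat3, Lpcat4 and Mboat7 kept their direction and their side of the threshold in all 14 alternatives, the authors' deposited test included. The number of genes called lower was 4 in each of them except quantile normalization and intensity-dependent centring, where Spns2 made it 5. Mfsd2a stayed positive and uncalled in each of the alternatives run for it. Its difference was 0.099 after quantile normalization and 0.078 to 0.152 when 1 library was left out (limma adjusted p from 0.054 to 0.206 over all alternatives on the deposited values), and the exact permutation p was then 0.2 each time, its lower limit with 2 libraries against 3. Mfsd2a, Mfsd2b, Spns2 and Mboat2 do not pass a minimum value of 5 and have no value under that filter. The count of called genes higher in the knockout, 1 with all libraries, was 0 to 1 when 1 library was left out, since Lpcat1 kept its call only without knockout library 3. Mfsd2b turned sign when 1 library was left out (-0.025 to 0.026), as did Mboat2 (-0.01 to 0.005), each within its error. Pathway genes called numbered 41 to 52 over all alternatives, beside 52. The count of 41 came without knockout library 2, where 3888 of all 15454 genes tested were called, against 5102 in the main fit.

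With the replicate number as a block (replicate block), 5 of the 10 genes, 51 pathway genes and 5074 of all genes were called, against 5, 52 and 5102 without it. The deviations of same-numbered libraries correlated at 0.0948, 0.0727 and 0.172 across genes, and every library correlated best with its own number. The labels do not say that a number marks a shared animal or day. Depth is unknown, so counting error cannot be given, and low genes such as Mfsd2a, Mfsd2b, Spns2 and Mboat2 are limited by the compressed scale.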

Other observations

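Genes that prepare polyunsaturated acyl chains moved in both directions. Of 10 tested genes of activation, desaturation and elongation 3 rose and 2 fell, or 50% called beside 33.0% of all genes tested. The acyl-CoA synthetase Acsl1 rose by 0.76, from 10.99 ± 0.07 to 11.75 ± 0.12 (SD, n = 3; limma adjusted p = 8.33e-05), and the desaturase Fads1 by 0.49. Its relative Acsl5 fell by 0.41 and the fatty acid carrier Fabp5 by 0.50. The elongase Elovl2, named after its value was seen, rose by 0.17 at a low level (authors' deposited log2 fold change 1.47).

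Proteins that move phospholipids between the 2 leaflets of a membrane were called in 7 of 21 tested cases, 4 higher and 3 lower, or 33.3%, a share near the 33.0% of all genes tested. The count was 4 without knockout library 2. The scramblase Ano6 rose by 0.74, from 11.37 ± 0.05 to 12.12 ± 0.08 (SD, n = 3; limma adjusted p = 3.34e-05), and the flippase Atp10d by 0.36 (log2 fold change 0.61 in the authors' deposited table). Plscr3, a mitochondrial phospholipid scramblase, fell by 1.10 and Xkr8, a scramblase activated by caspases, by 0.45. The list's median was 0.01, as over all genes tested.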
